A study of Caenorhabditis elegans with 11 samples.

Results

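The 39 genes described here encode proteins of chemical synapses, neurotransmitter metabolism, voltage-gated channels and electrical synapses of Caenorhabditis elegans. They were taken as a list of named genes, and each is represented by 1 Affymetrix probe set, the one with the highest mean over all 11 arrays among those assigned to that symbol alone. All 39 were on the array, out of 17118 genes that could be represented in this way. They fall into 8 roles: 2 kinesins of vesicle transport, 9 genes of vesicle release and the active zone, 3 of vesicle endocytosis, 6 of acetylcholine, 3 of glutamate, 8 of monoamines, 6 of calcium and potassium channels, and 2 innexins.

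At a chemical synapse, kinesin motors bring vesicle precursors to the terminal, proteins of the active zone dock and prime the vesicles, and calcium entry triggers fusion through the SNARE proteins. The transmitter is made by dedicated enzymes, loaded by vesicular transporters and removed by hydrolysis or reuptake. In C. elegans acetylcholine and glutamate carry most fast excitation, serotonin, dopamine, tyramine and octopamine modulate behaviour, and the enzymes of tyramine and octopamine synthesis are also made in the gonadal sheath.

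Total RNA of whole hermaphrodites was hybridised to Affymetrix C. elegans genome arrays, and the study asked which transcripts change in hermaphrodites kept with males. All worms were glp-1(e2141) mutants, labelled sterile. The allele is temperature-sensitive, and the gene encodes a Notch receptor that the germ line needs. Embryos came from 15 °C, plates of 10 cm stood at 25 °C for 8 days, the hermaphrodites were at day 8, and RNA came from 200 of them per sample after the males had been taken off. Plates held 250 hermaphrodites and 250 wild-type males, or 500 hermaphrodites, so the number of hermaphrodites per plate differed with the presence of males.

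The 4 groups were utx-1 RNAi with males (2 arrays, numbered 1 and 3), utx-1 RNAi without males (n = 3), with males and no RNAi (n = 3), and without males and no RNAi (n = 3). In what follows "with males" and "without males" alone mean the groups without RNAi. UTX-1 removes methyl groups from lysine 27 of histone H3. No empty-vector group is named, so in every comparison of utx-1 RNAi with no RNAi the knockdown cannot be told apart from RNAi treatment or its food. The labels speak of independent experiments, and the p-values measure the spread between these samples.

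The authors' values, made with RMA, are on a log2 scale and are not absolute levels, so no gene is ranked against another. In all, 5 comparisons were tested with limma on all probe sets. The effect of males was tested without RNAi and under utx-1 RNAi, and the effect of utx-1 RNAi was tested in the absence and in the presence of males. The interaction is the difference between both effects of males, the one under utx-1 RNAi minus the one without RNAi. "Rose" and "fell" are used where the adjusted p was under 0.05, and ± gives limma's standard error. Counts at an unadjusted p under 0.05 are given without the share of all genes, so they are not results about the genes counted. The comparisons share arrays, so their results are not independent of each other.

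The knockdown target was lower in all 5 utx-1 RNAi arrays. At its brightest probe set utx-1 read 9.06 and 8.40 in utx-1 RNAi with males, 6.42, 4.81 and 5.13 in utx-1 RNAi without males, 12.58, 13.07 and 13.09 with males, and 11.54, 12.45 and 12.01 without males. It fell by 6.55 ± 0.36 in the absence of males and by 4.18 ± 0.40 in their presence, with 1.07% and 5.51% of the linear signal left.

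The pair of arrays from utx-1 RNAi with males stood apart from the rest and went against the label sterile. They correlated at 0.995 with each other and at 0.961 to 0.983 with the other 9 arrays, which correlated at 0.986 or more among themselves. All 16 genes of a germ cell list rose in utx-1 RNAi with males against utx-1 RNAi without males (median 3.15), and 11 of 13 oocyte and eggshell genes rose (median 4.64). Shares of all genes there were 12.4% higher and 9.53% lower. The summed linear level of the germ cell list was 2472 to 2508 in utx-1 RNAi with males, against 374 to 431 in utx-1 RNAi without males, 443 to 563 with males and 358 to 439 without males. In the same comparison 9 of 17 muscle genes fell (median -0.43), and their summed level was 2894 to 3456 in utx-1 RNAi with males, against 3680 to 4575 in utx-1 RNAi without males, 3939 to 4730 with males and 4004 to 4682 without males. In that comparison 2 of the 17 fell without replicate 1 from utx-1 RNAi with males, while 16 germ cell and 11 oocyte genes still rose.

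What males did under utx-1 RNAi, what utx-1 RNAi did in their presence and the interaction rest on those 2 arrays. Where leaving out either one ended a call of a member, the value without it is given, and for the other lists the count without it. Without both, these 3 comparisons could not be fitted.

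The level of other neuronal genes was followed with 10 markers that are not members, among them the broadly neuronal genes unc-119 and rgef-1 and the neuropeptide processing genes egl-3, egl-21 and ida-1. Whether the members' own signal came from neurons was not tested. By limma 0 of the 10 passed the threshold in each of the 5 comparisons, with 2 and 3 at an unadjusted p under 0.05 for males without RNAi and under utx-1 RNAi, and medians of -0.15 for males under utx-1 RNAi and -0.14 for utx-1 RNAi with males. Their summed linear level was 2694 to 2927 in utx-1 RNAi with males, 2972 to 3441 in utx-1 RNAi without males, 2963 to 3714 with males and 3051 to 3428 without males. Of 10 touch and sensory neuron genes, mec-4 rose by 0.35 and mec-12 fell by 0.40 with males without RNAi, and mec-17 fell by 0.41 with males under utx-1 RNAi. Shares of all genes called in the 5 comparisons ran from 0.169% to 21.9%. The mec-4 call ended with any of 4 single arrays left out (adjusted p up to 0.0725), that of mec-12 with any of 5 (up to 0.117) and that of mec-17 with either of 2 (up to 0.155, without replicate 1 from utx-1 RNAi with males). In RNA of whole worms fewer cells of a type and less RNA per cell cannot be told apart, and neither can a smaller share of neuronal RNA in a larger total. Of a 14-gene male list 0 passed with males in either background by limma, with 2 (without RNAi) and 1 (under utx-1 RNAi) at an unadjusted p under 0.05. The shares of all genes that passed with males were 12.5% without RNAi and 21.9% under utx-1 RNAi.

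Over all 11 arrays 37 of 39 members spanned less than 1 log2 unit, the exceptions being tdc-1 and bas-1. The threshold was passed in none of the 5 comparisons by 26 members. Neither count was made over all genes, so neither sets the members apart from the array as a whole. The mean of 14 members, tdc-1 and cat-2 among them, lay below the median of all probe set means, 3.88, where RMA compresses differences.

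**Figure D1:**
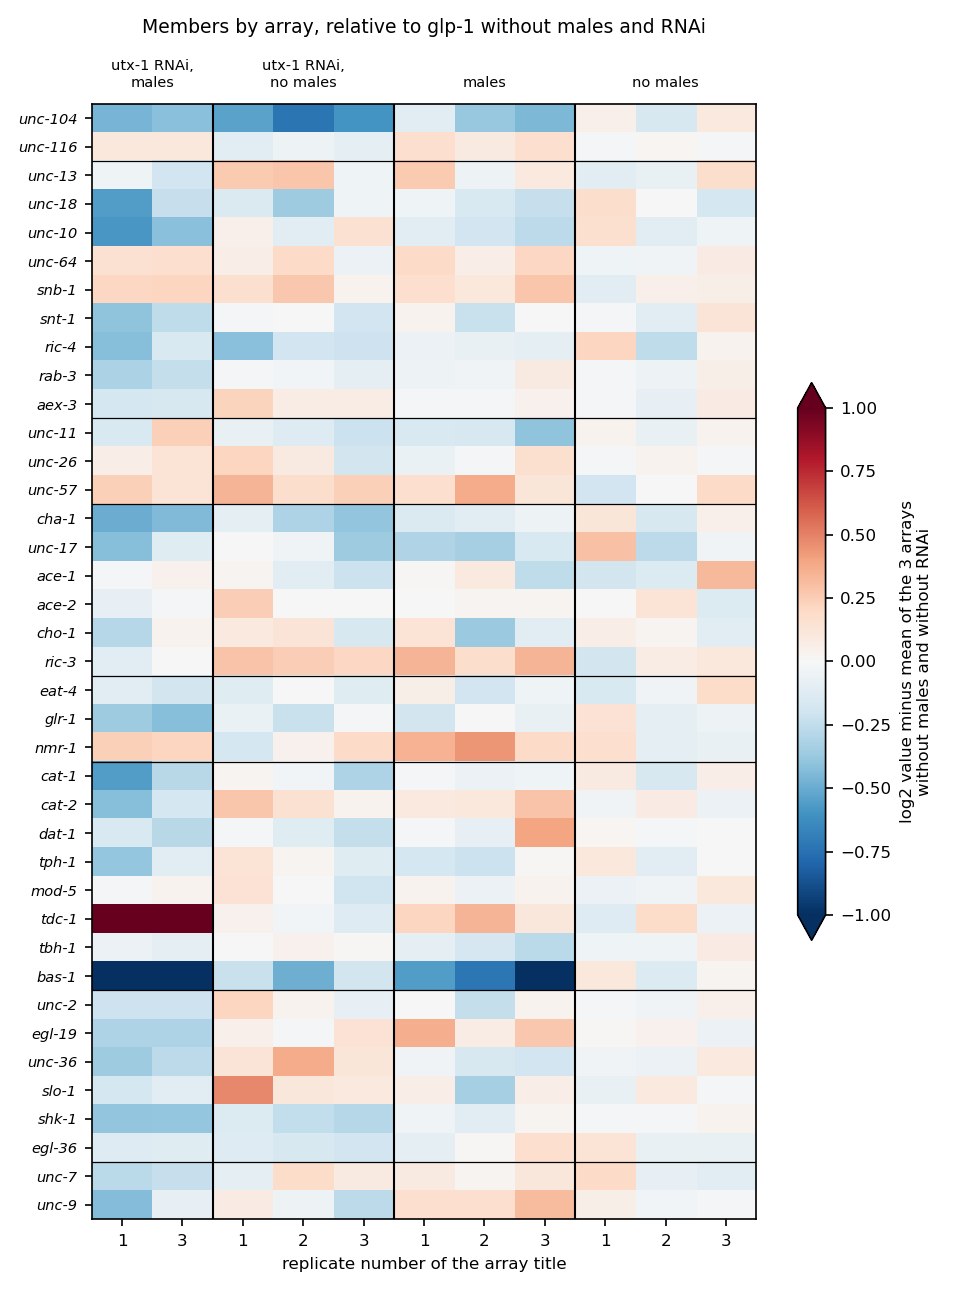
Log2 value of each of the 39 members in each of the 11 arrays (columns, by group and replicate number) minus its mean over the 3 arrays without males and without RNAi; red is higher and blue lower, colours saturate at 1 log2 unit, and horizontal lines separate the 8 roles. The tdc-1 row is deep red in both utx-1 RNAi arrays with males, and the bas-1 row is darkest blue in the 5 arrays with males.

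Males without RNAi changed 1 of 39 members: bas-1 fell and 0 rose, where 6.86% of all 17118 genes fell and 5.61% rose. The members' median difference was -0.04, against -0.01 for all genes. At an unadjusted p under 0.05 there were 9 members.

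Males under utx-1 RNAi changed 7 members, where 21.9% of all genes changed. tdc-1 rose, and bas-1, unc-10, unc-36, cat-2, egl-19 and aex-3 fell, where 12.4% of all genes rose and 9.53% fell. The members' median was -0.16, against -0.03 for all genes. An unadjusted p under 0.05 was reached by 17 members, a count given without the share of all genes.

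Without males, utx-1 RNAi lowered 1 member, unc-104, and raised 0, where 0.134% of all genes fell and 0.0351% rose. The median was -0.02, against -0.03 for all genes, with 7 members at an unadjusted p under 0.05. With males, utx-1 RNAi raised tdc-1 and lowered 7 members, namely egl-19, shk-1, cat-2, unc-9, rab-3, cha-1 and ric-3, where 9.39% of all genes rose and 5.23% fell. The median was -0.16, against -0.06 for all genes, with 16 members at an unadjusted p under 0.05.

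The interaction passed the threshold for 4 members, upward for tdc-1 and downward for cat-2, egl-19 and ric-3, where 8.08% of all genes passed, 6.87% upward and 1.21% downward. Its median was -0.13 over the members and -0.02 over all genes.

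Replicate 1 from utx-1 RNAi with males carried many of these calls. Without it the count for males under utx-1 RNAi was 1 higher and 2 lower, with 7.39% of all genes higher and 2.14% lower, and that for utx-1 RNAi with males was 2 higher and 1 lower, with 6.33% and 0.643% of all genes. The interaction count was then 2 higher and 1 lower, with 5.05% and 0.298% of all genes. Without replicate 3 of that group the members' median for the interaction was -0.19. Without replicate 1 or 3 with males, 1 rose and 4 fell for utx-1 RNAi with males. Of all genes 7.95% rose and 3.29% fell there without replicate 1 with males, and 8.51% and 3.79% without replicate 3. Without replicate 2 with males 1 rose and 5 fell, with 8.25% of all genes higher and 3.73% lower.

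The counts depended too on how the arrays were put on a common scale. Quantile-normalizing the deposited values again gave 1 higher and 18 lower members for males under utx-1 RNAi, with 11.3% of all genes higher and 14.9% lower, and centring each array on its median gave 1 higher and 19 lower, with 9.47% of all genes higher and 25.1% lower. Centring each array on the muscle list instead added 0.44 to every difference of that comparison and gave 13 higher members and 1 lower (bas-1), with 57.1% of all genes higher and 1.2% lower. For utx-1 RNAi with males, quantile normalization gave 1 higher and 12 lower, with 9.02% of all genes higher and 8.95% lower, and centring on array medians gave 1 higher and 15 lower, with 8.58% and 14.4% of all genes. Centring on the muscle list gave 11 higher and 0 lower there, with 44.6% and 0.532% of all genes. Under both centrings the members' median stayed 0.14 below that of all genes for males under utx-1 RNAi (difference of medians -0.14) and 0.10 below it for utx-1 RNAi with males (-0.10), because centring moves all genes alike.

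**Figure D2:**
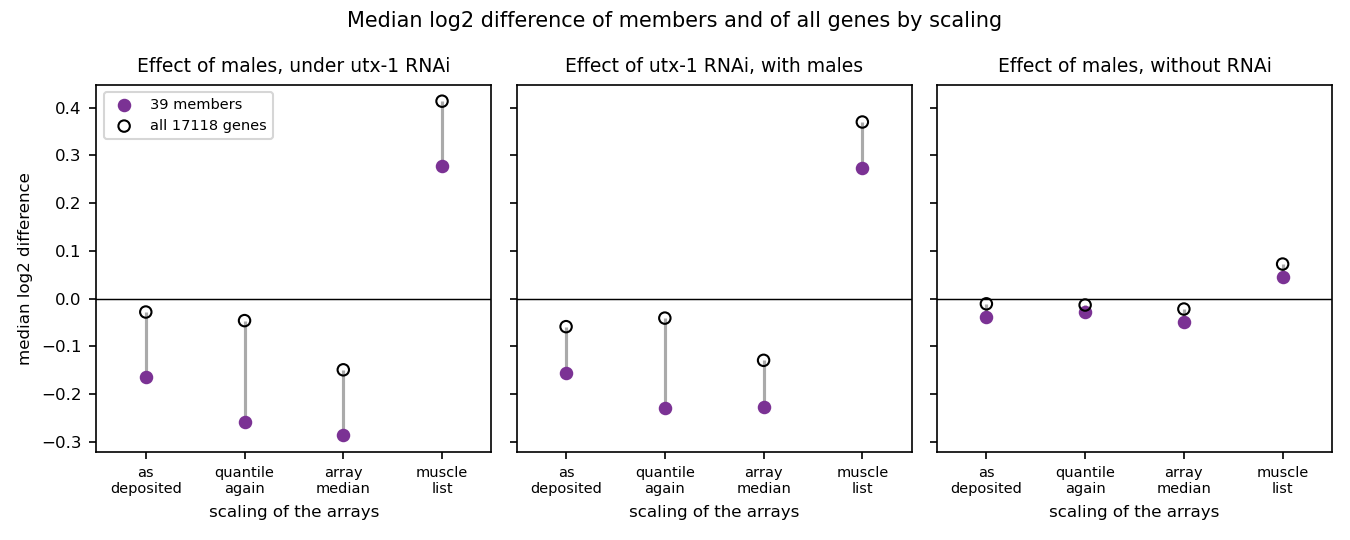
Median log2 difference of the 39 members (filled) and of all 17118 genes (open) under 4 scalings of the arrays, for males under utx-1 RNAi, utx-1 RNAi with males, and males without RNAi. In the first and second panels both medians are below 0 as deposited and above 0 when arrays are centred on the muscle list (0.28 for members and 0.41 for all genes in the first), and the members' median lies below that of all genes in all 3 panels under each scaling.

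Among the 8 monoamine genes, tdc-1 had the largest difference of all members. It encodes tyrosine decarboxylase, which makes tyramine. It read 5.15 and 5.45 in utx-1 RNAi with males, 3.29, 3.22 and 3.12 in utx-1 RNAi without males, 3.46, 3.59 and 3.36 with males, and 3.12, 3.43 and 3.19 without males. Both utx-1 RNAi arrays with males were higher than the other 9 by over 1.5 log2 units, and those 9 spanned 3.12 to 3.59.

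Under utx-1 RNAi, tdc-1 rose with males by 2.09 ± 0.12 (adjusted p = 1.99e-07, limma), a 4.25-fold higher signal. With males it rose under utx-1 RNAi by 1.83 ± 0.12 (adjusted p = 6.21e-07). Without RNAi the effect of males was 0.22 (95% interval -0.01 to 0.46, adjusted p = 0.221), and the interaction was 1.87 ± 0.16 (adjusted p = 1.27e-05). These 3 calls held in all 18, 18 and 17 alternatives that could be run. Of its dimmer probe sets, 1 rose by 0.98 with males under utx-1 RNAi (adjusted p = 9.23e-06) and the other differed by -0.05. The germ cell and oocyte lists were high in the same 2 arrays, and their part in the tdc-1 result was not tested.

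tbh-1, whose product converts tyramine into octopamine, did not share the tdc-1 pattern. It read 11.22 and 11.19 in utx-1 RNAi with males, 11.28, 11.32 and 11.29 in utx-1 RNAi without males, 11.19, 11.11 and 11.01 with males, and 11.24, 11.24 and 11.36 without males. The difference was -0.09 for males under utx-1 RNAi (95% interval -0.27 to 0.08) and -0.18 for males without RNAi (-0.33 to -0.02, adjusted p = 0.144), and no comparison passed.

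bas-1 encodes the aromatic amino acid decarboxylase that completes both dopamine and serotonin synthesis. It read 5.24 and 5.70 in utx-1 RNAi with males, 6.52, 6.26 and 6.56 in utx-1 RNAi without males, 6.19, 6.02 and 5.63 with males, and 6.85, 6.61 and 6.77 without males. All 5 arrays with males were lower than all 6 without males.

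Without RNAi bas-1 fell with males by 0.80 ± 0.15 (adjusted p = 0.00708), to 57.4% of the linear signal. Under utx-1 RNAi it fell with males by 0.97 ± 0.17 (adjusted p = 0.00168), to 50.9%. The 2 effects differed by -0.17 (95% interval -0.67 to 0.33, adjusted p = 0.746), and both calls held in all 19 alternatives. Its difference between utx-1 RNAi with males and males alone was -0.47 (adjusted p = 0.0914), with overlapping arrays.

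cat-2 encodes tyrosine hydroxylase, the rate-limiting enzyme of dopamine synthesis. It read 2.85 and 3.10 in utx-1 RNAi with males, 3.55, 3.43 and 3.31 in utx-1 RNAi without males, 3.37, 3.38 and 3.56 with males, and 3.24, 3.36 and 3.22 without males. The 2 arrays of utx-1 RNAi with males were the lowest of the 11. It fell with males under utx-1 RNAi by 0.46 ± 0.11 (adjusted p = 0.00929) and under utx-1 RNAi with males by 0.46 ± 0.11 (adjusted p = 0.0123). The interaction was -0.62 ± 0.14 (adjusted p = 0.0186), against an effect of males of 0.16 without RNAi. Over all arrays cat-2 averaged 3.31, below the median of all probe set means, 3.88. It was therefore not tested with dim probe sets left out.

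Leaving out replicate 1 from utx-1 RNAi with males ended all 3 cat-2 calls, and the differences became -0.33 (adjusted p = 0.149), -0.34 (0.183) and -0.49 (0.114). They ended too with arrays centred on the muscle list, where the adjusted p reached 0.935, 0.857 and 0.374. Over the alternatives their lowest adjusted p was 0.000977, 0.00248 and 0.00352.

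tph-1, the tryptophan hydroxylase that commits neurons to serotonin, passed in no comparison. It read 3.26 and 3.53 in utx-1 RNAi with males, 3.78, 3.67 and 3.52 in utx-1 RNAi without males, 3.47, 3.43 and 3.66 with males, and 3.75, 3.54 and 3.65 without males, so the groups of each of the 4 comparisons overlapped. The difference was -0.26 for males under utx-1 RNAi (95% interval -0.50 to -0.01, adjusted p = 0.136) and -0.12 without RNAi (-0.34 to 0.10).

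The monoamine transporters did not pass either. For cat-1, which loads monoamines into vesicles, the difference was -0.32 for males under utx-1 RNAi (adjusted p = 0.0907) and -0.38 for utx-1 RNAi with males (adjusted p = 0.0604). dat-1, the dopamine reuptake transporter, differed by -0.32 for utx-1 RNAi with males (adjusted p = 0.121), and mod-5, the serotonin reuptake transporter, by no more than 0.03 in any comparison.

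**Figure D3:**
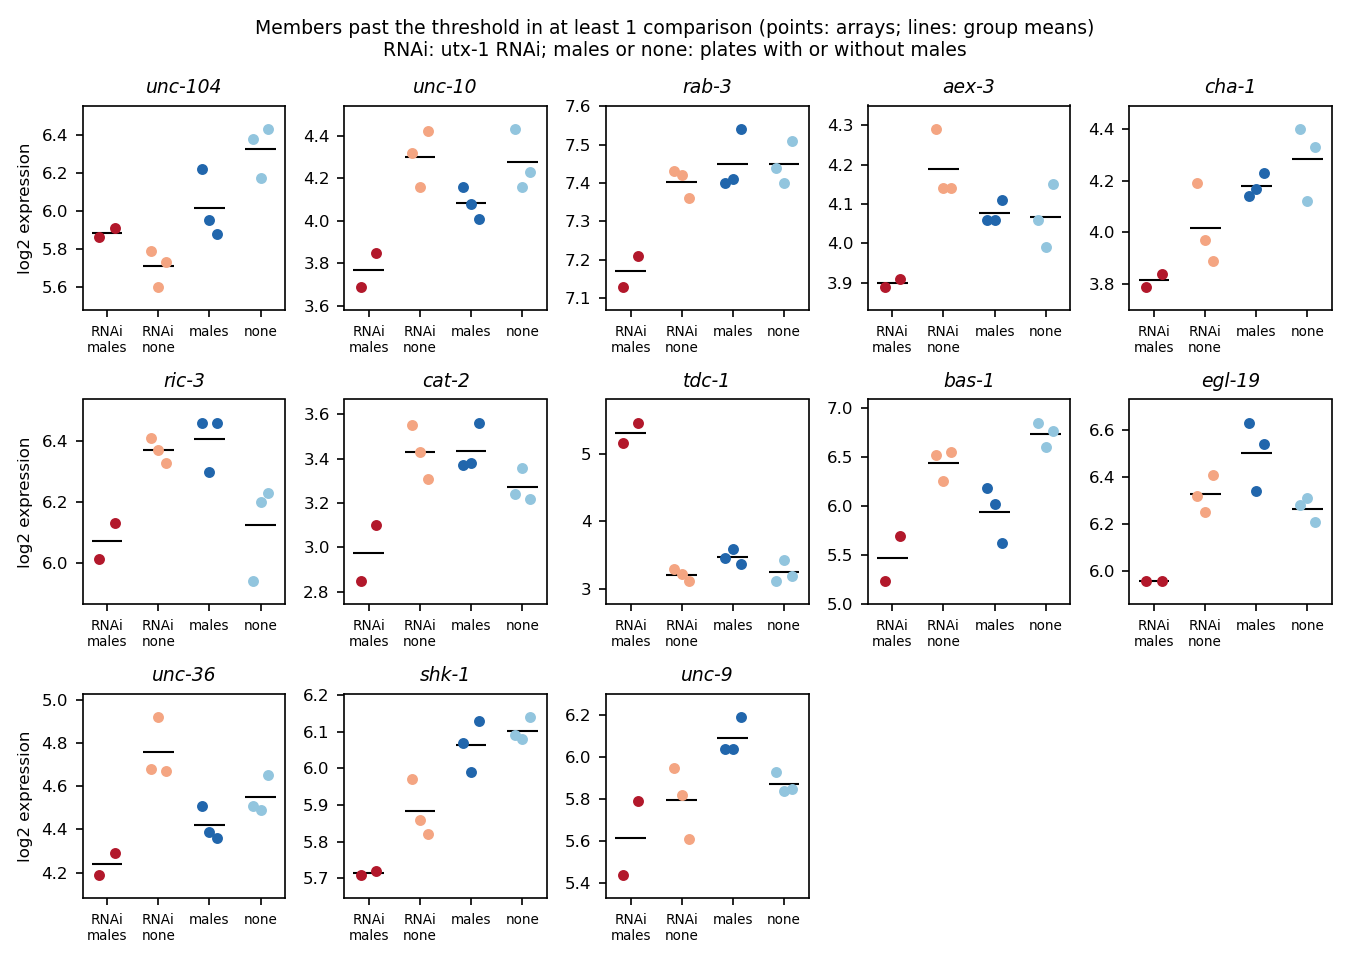
Log2 expression of the 13 members that passed the threshold in at least 1 comparison; each point is an array, each line a group mean, and the vertical axes differ between panels and do not start at 0. tdc-1 is above 5 only in utx-1 RNAi with males, and bas-1 is lower in both groups with males. In 8 of the other panels (unc-10, rab-3, aex-3, cha-1, cat-2, egl-19, unc-36 and shk-1) the lowest points are those of utx-1 RNAi with males. These 8 members are shown because they fell in a comparison that uses that group, so the low points are no separate result. The count was not made over all genes. Centred on the muscle list, the differences for utx-1 RNAi with males of rab-3, cha-1 and shk-1 turn positive. So do those for males under utx-1 RNAi of aex-3 and egl-19. The other called differences of egl-19 stay below 0.

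The monoamine cofactor list holds the genes that make and recycle the tetrahydrobiopterin used by the hydroxylases. Of its 4 genes 3 fell with males without RNAi (median -0.33): pcbd-1 by 0.59 ± 0.12 (adjusted p = 0.00911), the GTP cyclohydrolase gene cat-4 by 0.34 and qdpr-1 by 0.32. In that comparison 6.86% of all genes fell. The pcbd-1 call held whichever array was left out. The cat-4 call ended when any of 5 single arrays was left out (adjusted p up to 0.107, without replicate 3 with males) and that of qdpr-1 when any of 8 was (up to 0.126, also without that array).

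Under utx-1 RNAi, where 9.53% of all genes fell with males, 2 of the 4 cofactor genes did, pcbd-1 by 0.49 and qdpr-1 by 0.31. Without replicate 1 from utx-1 RNAi with males these became -0.27 (adjusted p = 0.301) and -0.15 (0.508). The pcbd-1 call was also lost without replicate 1 (adjusted p = 0.0733) or 2 (0.0519) from utx-1 RNAi without males, and that of qdpr-1 with any of 10 single arrays left out. Of 17 measured monoamine receptor genes 3 rose with males without RNAi, ser-7 by 0.52, ser-3 by 0.46 and octr-1 by 0.27, and 0 fell. In that comparison 5.61% of all genes rose and 6.86% fell. The ser-7 call ended without replicate 1 without males (0.43, adjusted p = 0.0513), that of ser-3 with any of 5 single arrays left out (up to 0.0957) and that of octr-1 with any of 10 (up to 0.164). Under utx-1 RNAi 0 of the 17 passed with males, where 21.9% of all genes passed.

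Both kinesins carry synaptic cargo, and 1 passed in 1 comparison. unc-104 encodes the kinesin that brings synaptic vesicle precursors to the terminal. It read 5.86 and 5.91 in utx-1 RNAi with males, 5.79, 5.60 and 5.73 in utx-1 RNAi without males, 6.22, 5.95 and 5.88 with males, and 6.38, 6.17 and 6.43 without males. All 3 arrays of utx-1 RNAi without males were lower than all 6 without RNAi.

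In the absence of males, unc-104 fell under utx-1 RNAi by 0.62 ± 0.10 (adjusted p = 0.0431), and was the only member past the threshold in that comparison. The call held in 6 of 19 alternatives (adjusted p from 0.031 to 0.159) and ended without any 1 of 9 arrays: each of the 3 without males (-0.60, -0.70 and -0.57), each of the 3 of utx-1 RNAi without males (-0.67, -0.57 and -0.63), and replicate 2 with males or either replicate of utx-1 RNAi with males (-0.62 each). At the other unc-104 probe set the difference was 0.11 there (adjusted p = 0.486) and -0.37 for utx-1 RNAi with males (adjusted p = 0.0105), so the 2 probe sets disagreed. unc-116, the kinesin-1 heavy chain, differed by 0.15 for males without RNAi, 0.19 under utx-1 RNAi (95% interval 0.03 to 0.34, adjusted p = 0.0849) and -0.08 for utx-1 RNAi without males.

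Of 20 other genes of axonal transport and neurite structure, 2 rose with males under utx-1 RNAi and 0 fell: the kinesin light chain gene klc-1 by 2.19 ± 0.16 (adjusted p = 1.07e-06) and unc-76 by 0.51 ± 0.09 (adjusted p = 0.00177). None of the 20 passed with males without RNAi. Shares of all genes called with males were 12.4% higher and 9.53% lower under utx-1 RNAi, and 12.5% in either direction without RNAi.

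The core fusion machinery showed no call at its brightest probe sets. snb-1, the vesicle SNARE synaptobrevin, read 11.23 and 11.24 in utx-1 RNAi with males, 11.18, 11.29 and 11.06 in utx-1 RNAi without males, 11.19, 11.13 and 11.30 with males, and 10.91, 11.07 and 11.08 without males. With males all 3 arrays were above the 3 without males, by a mean of 0.18 (95% interval 0.00 to 0.36, adjusted p = 0.183). unc-64, the syntaxin of the target membrane, differed by 0.15 with males without RNAi and 0.09 under utx-1 RNAi.

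unc-13 encodes the priming factor that makes vesicles ready for fusion. It read 6.13 and 5.98 in utx-1 RNAi with males, 6.44, 6.45 and 6.13 in utx-1 RNAi without males, 6.44, 6.12 and 6.27 with males, and 6.07, 6.10 and 6.35 without males. The arrays of utx-1 RNAi with males lay at or below the lowest of utx-1 RNAi without males, which met them at 6.13, and the groups of the other comparisons overlapped. For males under utx-1 RNAi the difference was -0.28 (95% interval -0.56 to 0.00, adjusted p = 0.151).

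Among their partners, unc-18, the syntaxin-binding protein, differed by -0.22 for males under utx-1 RNAi, and ric-4, the SNAP-25 SNARE, by -0.02. The calcium sensor gene snt-1, a synaptotagmin, differed by -0.26 for males under utx-1 RNAi (adjusted p = 0.117) and by -0.26 for utx-1 RNAi with males (adjusted p = 0.131). At dimmer probe sets unc-18 (-0.34, adjusted p = 0.0195), unc-13 (-0.39, adjusted p = 0.0424) and ric-4 (-0.39, adjusted p = 0.0193) passed for males under utx-1 RNAi.

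unc-10 encodes RIM, a scaffold of the active zone that binds RAB-3. It read 3.69 and 3.85 in utx-1 RNAi with males, 4.32, 4.16 and 4.42 in utx-1 RNAi without males, 4.16, 4.08 and 4.01 with males, and 4.43, 4.16 and 4.23 without males. The 2 arrays of utx-1 RNAi with males were the lowest. It fell with males under utx-1 RNAi by 0.53 ± 0.11 (adjusted p = 0.00396), and the call held in 16 of 19 alternatives (adjusted p from 0.00149 to 0.621). Without replicate 1 from utx-1 RNAi with males it ended (-0.45, adjusted p = 0.0644), with arrays centred on the muscle list (-0.09) and with the mean of its probe sets (-0.14), whose other members differed by 0.01 and 0.09.

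rab-3 encodes the vesicle-bound GTPase of the release site. It read 7.13 and 7.21 in utx-1 RNAi with males, 7.43, 7.42 and 7.36 in utx-1 RNAi without males, 7.40, 7.41 and 7.54 with males, and 7.44, 7.40 and 7.51 without males. Again the 2 arrays of utx-1 RNAi with males lay below the other 9. It fell under utx-1 RNAi with males by 0.28 ± 0.08 (adjusted p = 0.0341), and differed by -0.23 for males under utx-1 RNAi (adjusted p = 0.0558).

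The rab-3 call held in 11 of 19 alternatives (adjusted p from 0.00573 to 0.407). It ended without any of the 3 arrays with males (-0.30, -0.30 and -0.24) or either array of utx-1 RNAi with males (-0.24 without replicate 1 and -0.32 without replicate 3), and turned to 0.15 with arrays centred on the muscle list. The other rab-3 probe set fell by 0.30 in that comparison (adjusted p = 0.0429) and by 0.49 with males under utx-1 RNAi (adjusted p = 0.0022).

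aex-3 encodes the exchange factor that activates RAB-3. It read 3.89 and 3.91 in utx-1 RNAi with males, 4.29, 4.14 and 4.14 in utx-1 RNAi without males, 4.06, 4.06 and 4.11 with males, and 4.06, 3.99 and 4.15 without males. The lowest 2 of the 11 arrays were those of utx-1 RNAi with males. It fell with males under utx-1 RNAi by 0.28 ± 0.08 (adjusted p = 0.0284), in 12 of 19 alternatives (adjusted p from 0.00184 to 0.363). The call ended without replicate 1 from utx-1 RNAi without males (-0.23) or without replicate 1 (-0.27) or 3 (-0.29) from utx-1 RNAi with males, and turned to 0.16 with arrays centred on the muscle list.

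The 3 endocytosis genes recycle vesicle membrane after fusion and passed in no comparison at their brightest probe sets. unc-11, the AP180 clathrin adaptor, differed by -0.24 with males without RNAi (adjusted p = 0.174) and by 0.28 for utx-1 RNAi with males (adjusted p = 0.139). At 2 dimmer unc-11 probe sets utx-1 RNAi with males gave -0.38 (adjusted p = 0.0437) and -0.33 (adjusted p = 0.034), opposite in sign to the brightest. unc-57, the endophilin, differed by 0.22 with males without RNAi and 0.25 for utx-1 RNAi without males, and unc-26, the synaptojanin phosphatase, by at most 0.08.

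Of 25 other release and active zone genes 5 fell with males under utx-1 RNAi and 0 rose (median -0.14), and aex-1, a gene of the Munc13 family, had the smallest p (-0.49 ± 0.08, adjusted p = 0.000974). With each array left out in turn 1 to 5 of the 25 fell, the lowest count being that without replicate 1 from utx-1 RNAi with males. With males without RNAi, rab-10 rose by 0.38 ± 0.07 (adjusted p = 0.0063) and 0 fell. None of these passed for utx-1 RNAi without males. Under utx-1 RNAi 12.4% of all genes rose with males and 9.53% fell, against 5.61% and 6.86% without RNAi.

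**Figure D4:**
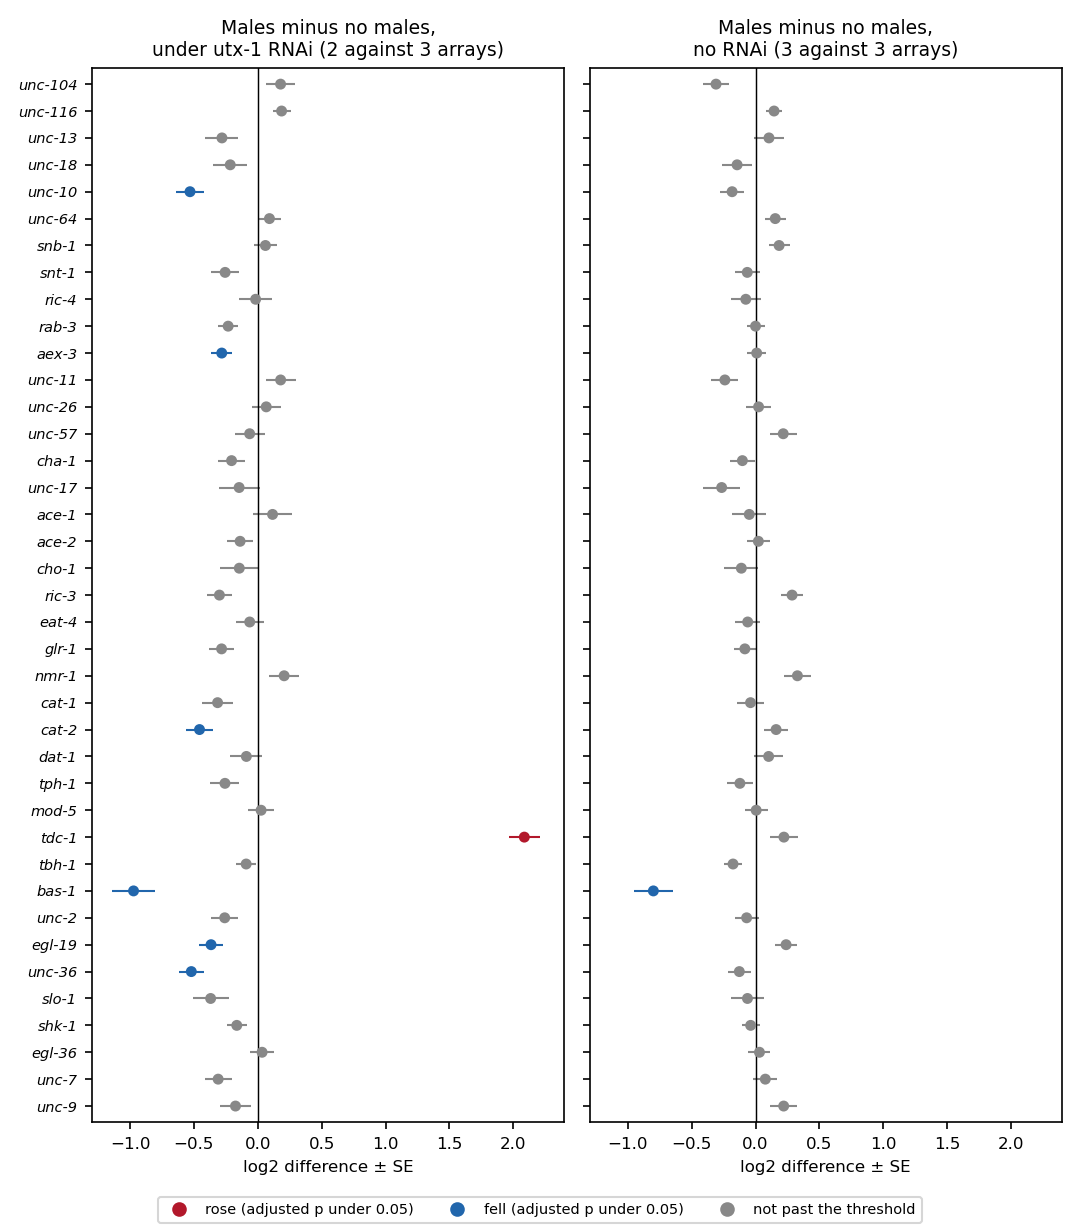
Log2 difference ± standard error of the 39 members for males under utx-1 RNAi (left, 2 arrays against 3) and without RNAi (right, 3 against 3), ordered by role; red rose, blue fell, grey did not pass. bas-1 is blue in both panels, at -0.97 and -0.80, and the other 6 coloured members (tdc-1 at 2.09, unc-10, aex-3, cat-2, egl-19 and unc-36) are coloured on the left and grey on the right; with arrays centred on the muscle list aex-3 and egl-19 turn positive on the left.

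Of the 6 acetylcholine genes, cha-1 and ric-3 fell under utx-1 RNAi with males, and ric-3 passed in the interaction too. cha-1 makes choline acetyltransferase. It read 3.79 and 3.84 in utx-1 RNAi with males, 4.19, 3.97 and 3.89 in utx-1 RNAi without males, 4.14, 4.17 and 4.23 with males, and 4.40, 4.12 and 4.33 without males. The 2 arrays of utx-1 RNAi with males were the lowest of the 11.

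It fell under utx-1 RNAi with males by 0.37 ± 0.11 (adjusted p = 0.039), in 9 of 19 alternatives (adjusted p from 0.00836 to 0.739). The call ended without any of the 3 arrays with males (-0.39, -0.37 and -0.34), either of utx-1 RNAi with males (-0.34 and -0.39) or replicate 3 without males (-0.37), and turned to 0.06 with arrays centred on the muscle list. The second cha-1 probe set differed by -0.24 (adjusted p = 0.23).

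unc-17, the vesicular acetylcholine transporter gene, overlaps cha-1 in the RefSeq gene table. It read 3.72 and 4.02 in utx-1 RNAi with males, 4.14, 4.11 and 3.79 in utx-1 RNAi without males, 3.84, 3.81 and 3.99 with males, and 4.44, 3.88 and 4.11 without males. The groups overlapped in each comparison, and the difference for utx-1 RNAi with males was -0.01 (95% interval -0.36 to 0.34).

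ric-3 encodes a chaperone that nicotinic acetylcholine receptors need for assembly. It read 6.01 and 6.13 in utx-1 RNAi with males, 6.41, 6.37 and 6.33 in utx-1 RNAi without males, 6.46, 6.30 and 6.46 with males, and 5.94, 6.20 and 6.23 without males. The arrays with either treatment alone read 6.30 to 6.46, and those with both or neither read 5.94 to 6.23. The effect of males was 0.29 without RNAi (adjusted p = 0.0582) and -0.30 under utx-1 RNAi (adjusted p = 0.0507), neither of which passed, and the interaction did, at -0.59 ± 0.13 (adjusted p = 0.017).

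The ric-3 interaction held in 15 of 18 alternatives (adjusted p from 0.00369 to 0.423) and was lost without replicate 1 from utx-1 RNAi with males (-0.53, adjusted p = 0.0922). At its second probe set the interaction was -0.05 (adjusted p = 0.891). ric-3 fell under utx-1 RNAi with males by 0.34 ± 0.10 (adjusted p = 0.0411), in 6 of 19 alternatives (adjusted p from 0.00635 to 0.611). That call ended without any 1 of 8 arrays: replicate 1 or 3 with males (-0.31 each), replicate 1 (-0.28) or 3 (-0.40) from utx-1 RNAi with males, and replicate 2 without males or any array of utx-1 RNAi without males (-0.34 each). It turned to 0.09 with arrays centred on the muscle list.

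The acetylcholinesterase genes ace-1 and ace-2 and the choline reuptake transporter gene cho-1 passed in no comparison, with differences between -0.15 and 0.12 in the 4 comparisons of groups. With males under utx-1 RNAi 12.4% of all genes rose and 9.53% fell, and without RNAi 5.61% and 6.86% did. Of 26 nicotinic receptor genes, 1 rose with males without RNAi, acr-12 by 0.42 ± 0.09 (adjusted p = 0.0109), and 2 fell with males under utx-1 RNAi (median -0.12). Both of these calls, unc-63 and lev-10, ended without replicate 1 from utx-1 RNAi with males (adjusted p = 0.145 and 0.290), and 1 fell without replicate 1 from utx-1 RNAi without males. Of 16 genes of muscarinic receptors and their G protein pathway 0 passed with males without RNAi and 3 fell under utx-1 RNAi (median -0.24), led by the adenylyl cyclase gene acy-1 (-0.63 ± 0.11, adjusted p = 0.00187). The count was 1 of the 16 without replicate 1 from utx-1 RNAi with males, and 6 without replicate 1 without males.

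The 3 glutamate genes passed in no comparison. eat-4, the vesicular glutamate transporter gene, read 2.64 and 2.57 in utx-1 RNAi with males, 2.63, 2.75 and 2.63 in utx-1 RNAi without males, 2.81, 2.56 and 2.71 with males, and 2.60, 2.72 and 2.94 without males. All 4 groups overlapped, and the effect of males was -0.06 both without RNAi (95% interval -0.27 to 0.15) and under utx-1 RNAi (-0.30 to 0.17). Its values lay below the median of every array.

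The AMPA-type receptor gene glr-1 differed by -0.28 for males under utx-1 RNAi (adjusted p = 0.062) and -0.30 for utx-1 RNAi with males (adjusted p = 0.0649). The NMDA-type receptor gene nmr-1 was higher with males in both backgrounds without passing, by 0.33 without RNAi (95% interval 0.09 to 0.56, adjusted p = 0.0708) and 0.21 under utx-1 RNAi (-0.06 to 0.47). Of 20 other glutamate receptor and glutamate-gated channel genes 5 fell with males under utx-1 RNAi (median -0.24) and 0 passed without RNAi. With males 9.53% of all genes fell under utx-1 RNAi, and 12.5% passed without RNAi. Of the 20, 0 fell without replicate 1 from utx-1 RNAi with males, and without replicate 1 from utx-1 RNAi without males 2 did.

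Of the 6 channel genes, 3 passed. egl-19 encodes the pore subunit of the L-type calcium channel, which body wall muscle and pharynx use as well as neurons. It read 5.96 and 5.96 in utx-1 RNAi with males, 6.32, 6.25 and 6.41 in utx-1 RNAi without males, 6.63, 6.34 and 6.54 with males, and 6.28, 6.31 and 6.21 without males. The 2 arrays of utx-1 RNAi with males were the lowest, and the 3 with males were above the 3 without males.

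egl-19 fell under utx-1 RNAi with males by 0.54 ± 0.09 (adjusted p = 0.00192) and with males under utx-1 RNAi by 0.37 ± 0.09 (adjusted p = 0.016), against an effect of males of 0.24 without RNAi (adjusted p = 0.0909). The interaction was -0.61 ± 0.13 (adjusted p = 0.0102). It held in 16 of 18 alternatives (adjusted p from 0.00351 to 0.396) and ended with arrays centred on the muscle list (-0.25) and with the mean of its probe sets (-0.34, adjusted p = 0.0865). The fall of muscle genes in the same 2 arrays stands beside these values, and its part in them was not tested. For utx-1 RNAi with males 9 of 17 fell (median -0.48), where 5.23% of all genes fell. Fewer of the 17 did without replicate 1 of that group.

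The fall of egl-19 under utx-1 RNAi with males held in 18 of 19 alternatives (adjusted p from 0.00084 to 0.523) and ended with arrays centred on the muscle list (-0.11). Its fall with males under utx-1 RNAi ended without replicate 3 from utx-1 RNAi without males (-0.33, adjusted p = 0.0516) or without replicate 1 (-0.37, 0.104) or 3 (-0.37, 0.0645) from utx-1 RNAi with males, over a range from 0.00397 to 0.671, and turned to 0.08 with arrays centred on the muscle list. At the second probe set the interaction was -0.08 (adjusted p = 0.783), and the fall under utx-1 RNAi with males was a difference of -0.25 (adjusted p = 0.0924).

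unc-36 encodes the alpha2-delta subunit of calcium channels. It read 4.19 and 4.29 in utx-1 RNAi with males, 4.68, 4.92 and 4.67 in utx-1 RNAi without males, 4.51, 4.39 and 4.36 with males, and 4.51, 4.49 and 4.65 without males. The 3 arrays of utx-1 RNAi without males were the highest and the 2 with males under RNAi the lowest. It fell with males under utx-1 RNAi by 0.52 ± 0.10 (adjusted p = 0.00278), in 18 of 19 alternatives (adjusted p from 0.000273 to 0.666), the exception being arrays centred on the muscle list (-0.08). Without RNAi the effect of males was -0.13, and the interaction of -0.39 did not pass (adjusted p = 0.108).

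unc-2, the presynaptic calcium channel pore subunit, read 3.97 and 3.97 in utx-1 RNAi with males, 4.39, 4.21 and 4.09 in utx-1 RNAi without males, 4.17, 3.94 and 4.21 with males, and 4.16, 4.14 and 4.23 without males. The difference for males under utx-1 RNAi was -0.26 (95% interval -0.49 to -0.03, adjusted p = 0.108), and no comparison passed.

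shk-1 encodes a Shaker-type potassium channel that ends action potentials. It read 5.71 and 5.72 in utx-1 RNAi with males, 5.97, 5.86 and 5.82 in utx-1 RNAi without males, 6.07, 5.99 and 6.13 with males, and 6.09, 6.08 and 6.14 without males. All 5 utx-1 RNAi arrays were lower than all 6 without RNAi. It fell under utx-1 RNAi with males by 0.35 ± 0.08 (adjusted p = 0.0114) and differed by -0.22 without males (95% interval -0.37 to -0.07, adjusted p = 0.156).

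The shk-1 call held in 16 of 19 alternatives (adjusted p from 0.00139 to 0.647). It ended without replicate 1 (-0.34, adjusted p = 0.0935) or 3 (-0.35, adjusted p = 0.0505) from utx-1 RNAi with males and turned to 0.08 with arrays centred on the muscle list. The calcium-activated potassium channel gene slo-1 differed by -0.37 for males under utx-1 RNAi (adjusted p = 0.0878), and the Shaw-type channel gene egl-36 by 0.03.

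Of 24 other potassium channel genes 7 fell with males under utx-1 RNAi and 0 rose (median -0.20), with shw-3 having the smallest p (-0.52 ± 0.09, adjusted p = 0.00136). In that comparison 9.53% of all genes fell and 12.4% rose. Of the 24, 1 fell without replicate 1 from utx-1 RNAi with males, without replicate 1 or 3 from utx-1 RNAi without males 3 did, and without replicate 2 without males 4 did. Without RNAi 1 fell, kqt-3 by 0.44 ± 0.09 (adjusted p = 0.00877), where 6.86% of all genes fell. Of 9 other calcium and sodium leak channel genes 4 fell and 1 rose with males under utx-1 RNAi, among them unc-80, a subunit of the sodium leak channel (-0.75 ± 0.12, adjusted p = 0.000641), and the inositol trisphosphate receptor gene itr-1 (-0.60 ± 0.11, adjusted p = 0.00175). Of the 9, 2 fell without replicate 1 from utx-1 RNAi with males, or without replicate 1 or 2 from utx-1 RNAi without males.

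The innexins unc-7 and unc-9 form gap junctions between neurons, and unc-9 also couples muscle cells. unc-9 read 5.44 and 5.79 in utx-1 RNAi with males, 5.95, 5.82 and 5.61 in utx-1 RNAi without males, 6.04, 6.04 and 6.19 with males, and 5.93, 5.84 and 5.85 without males. The 3 arrays with males were the highest of the 11. It fell under utx-1 RNAi with males by 0.48 ± 0.12 (adjusted p = 0.0199), in 14 of 19 alternatives (adjusted p from 0.00338 to 0.799). Leaving out replicate 1 from utx-1 RNAi with males (-0.30, adjusted p = 0.265) or replicate 3 with males (-0.42, adjusted p = 0.0597) ended the call, as did centring the arrays on the muscle list (-0.047) and the mean of its probe sets (-0.26), and the other probe set differed by -0.04.

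For unc-7 the difference was -0.31 for males under utx-1 RNAi (adjusted p = 0.0588) and -0.33 for utx-1 RNAi with males (adjusted p = 0.0615). Among all genes 12.4% rose with males under utx-1 RNAi and 9.53% fell, against 5.61% and 6.86% without RNAi. The other innexins moved in both directions. Of 24 measured, 5 rose and 6 fell with males under utx-1 RNAi, and the 3 with the smallest p were inx-22 (3.15 ± 0.16), inx-14 (2.53 ± 0.15) and inx-21 (1.11 ± 0.13), innexins of the germ line, each with an interaction past the threshold (3.00, 2.47 and 0.84). Without replicate 1 from utx-1 RNAi with males 5 rose and 1 fell, and without replicate 1 from utx-1 RNAi without males 5 rose and 3 fell. Without RNAi 2 fell with males, inx-11 by 0.74 ± 0.15 (adjusted p = 0.00857) and inx-17 by 0.32, whose call ended without replicate 1 or 3 without males or replicate 3 with males (adjusted p up to 0.0935).

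Over all 12 lists of other neuronal and pathway genes together, 220 of 236 listed genes were measured. With males under utx-1 RNAi 9 rose and 36 fell (median -0.13), or 20.5% of the 220. Of all genes 21.9% passed there, 12.4% upward and 9.53% downward. Without RNAi 8 rose and 7 fell with males (median -0.01), or 6.82%, against 12.5% of all genes (5.61% upward and 6.86% downward). Under utx-1 RNAi with males 8 rose and 19 fell (median -0.14), or 12.3%, against 14.6% of all genes (9.39% upward and 5.23% downward). Without replicate 1 from utx-1 RNAi with males the counts of these 2 comparisons that use that group were lower, and so were the shares of all genes. Without replicate 1 from utx-1 RNAi without males 8 rose and 16 fell for males under utx-1 RNAi, with 10.1% of all genes higher and 5.82% lower. With utx-1 RNAi in the absence of males 0 of the 220 passed by limma, against 32 at an unadjusted p under 0.05. The GABA genes and the neuronal transcription factor genes belong to these lists: of 12 GABA genes 2 fell with males under utx-1 RNAi (gbb-2 and unc-49, 0 of them without replicate 1 from utx-1 RNAi with males or replicate 1 or 2 from utx-1 RNAi without males) and 1 without RNAi, the vesicular GABA transporter gene unc-47 by 0.51 ± 0.08 (adjusted p = 0.00359), and of 24 transcription factor genes 1 rose under utx-1 RNAi and 2 without RNAi, with ceh-10 up by 1.09 ± 0.20 without RNAi (adjusted p = 0.00624). The call under utx-1 RNAi, unc-37, ended without replicate 1 from utx-1 RNAi with males, and the other call without RNAi, unc-86, ended with any of 8 single arrays left out.

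**Figure D5:**
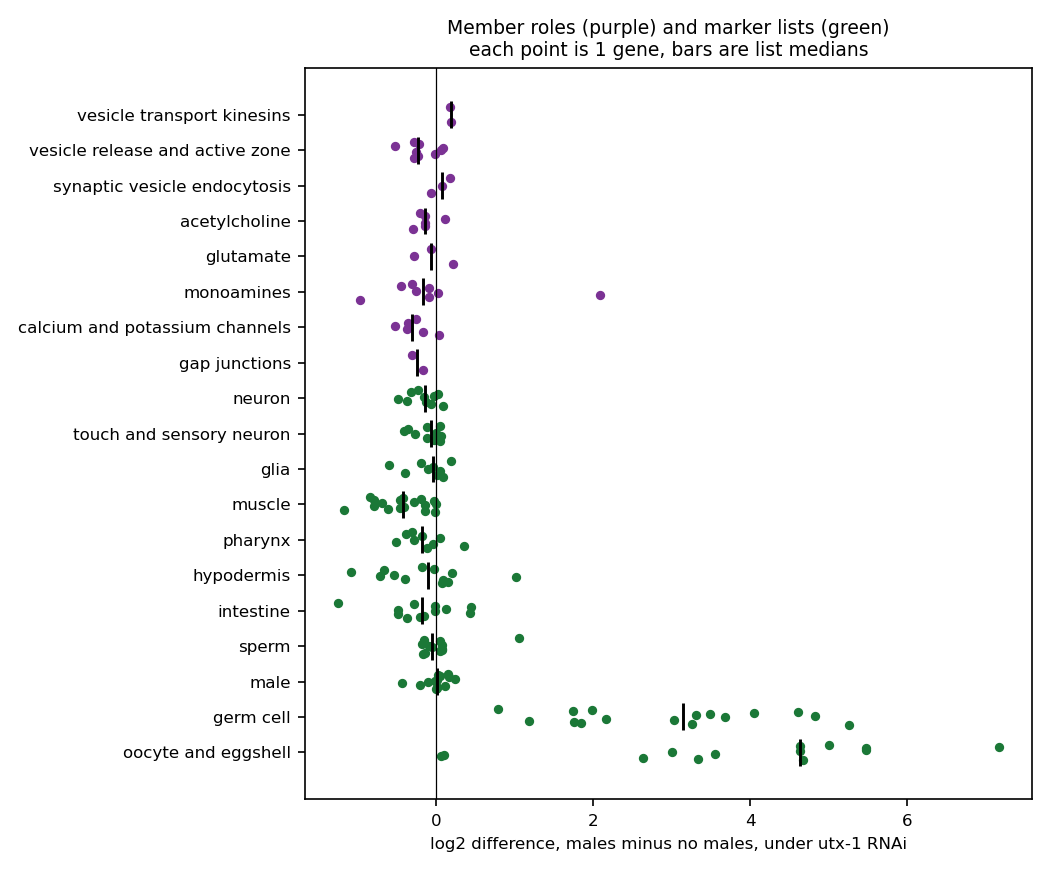
Log2 difference for males under utx-1 RNAi of every member, by role (purple), and of every gene of 11 marker lists (green); each point is 1 gene and each bar a list median. Member medians lie between -0.31 (calcium and potassium channels) and 0.18 (kinesins), the neuron list at -0.15, the muscle list at -0.43, and the germ cell and oocyte lists at 3.15 and 4.64; with arrays centred on the muscle list every point moves up by 0.44.

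Besides the brightest, the members had 39 further probe sets. For males under utx-1 RNAi 1 rose (tdc-1) and 5 fell (rab-3, ric-4, unc-18, unc-104 and unc-13), and for utx-1 RNAi with males 1 rose (tdc-1) and 7 fell, 2 of them for unc-11. With males without RNAi 1 rose, of unc-116, and with utx-1 RNAi in the absence of males 0 passed. Among all 22548 probe sets 4707 passed for males under utx-1 RNAi and 3165 for utx-1 RNAi with males. The numbers were 2661 for males without RNAi and 37 for utx-1 RNAi without males.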

How the data were processed

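The deposited log2 values, 1 per probe set and array, were made by the authors with RMA, per the submitters' processing notes. RMA's version and settings are not stated there, nor is joint processing of the arrays. Array medians lay between 3.77 and 3.97. No array duplicated another (smallest SD of a difference, over all pairs of arrays, 0.171). The number of arrays limits the precision.

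Titles gave the groups and the replicate numbers; descriptions number 2 utx-1 RNAi arrays differently. Of 22625 probe sets, 77 controls were removed and 22548 tested. Among these the platform annotation lists 20766 with 1 symbol, 887 with several and 895 with none. For 20701 the symbol was renewed through gene identifiers in RefSeq's WBcel235 gene table, from which names and overlaps of genes were taken. The probe sets of 15 members end in _s_at and of 4 in _x_at, which marks possible binding to related transcripts.

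Group means were fitted with limma 3.58.1 (R 4.3.3; lmFit, contrasts.fit, eBayes with defaults) to all 11 arrays, with 7 residual and 4.84 prior degrees of freedom. Adjustment was by Benjamini-Hochberg, per comparison, across all tested probe sets. Every adjusted p is limma's, and shares of all genes are over the brightest probe set of 17118 genes. The procedure was tested on simulated data. Alternatives were a trended and robust prior, leaving out dim probe sets, 3 other scalings, the groups of a comparison alone, a replicate block, the mean of a gene's probe sets, and leaving out each array. Where that left 1 array of utx-1 RNAi with males, it was assumed to vary like the other groups.

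The members, lists and tests were chosen with earlier results of these data known. Values per array are given for members past the threshold in any comparison and for unc-13, unc-17, unc-104, cat-2, tph-1, eat-4, snb-1 and unc-2; tbh-1 was added after its values were seen. Genes of other lists are named from the 3 with the smallest p per list and comparison.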

Additional observations from a re-analysis of the deposited data

Results flagged for a closer look

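For 4 members the effect of males differed between the 2 RNAi backgrounds by the interaction test (limma, adjusted p under 0.05). The effect under utx-1 RNAi minus that without RNAi was 1.87 for tdc-1, -0.62 for cat-2, -0.61 for egl-19 and -0.59 for ric-3. The tdc-1 result held in all 17 alternatives. The egl-19 result ended with arrays centred on the muscle list (-0.25) and with the mean of its probe sets (-0.34). Those of cat-2 and ric-3 ended without replicate 1 from utx-1 RNAi with males and with arrays centred on the muscle list (-0.26 for cat-2), that of cat-2 also with the replicate block and that of ric-3 also with the mean of its probe sets (-0.32). No group had the 4 samples needed to look for a single array far from the others.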

How the results depend on the processing

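The counts of changed members moved with the scaling. For males under utx-1 RNAi 7 became 19 after a new quantile normalization, 20 centred on array medians and 14 centred on the muscle list, where the share of all genes called was 21.9% as deposited and 26.2%, 34.6% and 58.3% under these scalings. For utx-1 RNAi with males 8 became 13, 16 and 11 (the last within 1.5 times), with 14.6% of all genes called as deposited and 18%, 23% and 45.1% under these scalings, and 4 with the replicate block (10.7%). The interaction count of 4 (8.08% of all genes) became 8 centred on array medians (10.9%) and 2 with the mean of a gene's probe sets (7.93%). With dim probe sets left out it was 2 of the 25 members still tested, tdc-1 and cat-2 not among them (10.4% of the genes still tested). For males without RNAi 1 (12.5%) became 2 with dim probe sets left out (24.6%), after quantile normalization (13.6%) and with the mean of a gene's probe sets (12.8%). For utx-1 RNAi without males 1 (0.169%) became 0 centred on the muscle list (0.549%) and with the groups of the comparison alone (0.0935%). It was also 0 there with the replicate block (0.0234%) and with the mean of a gene's probe sets (0.158%).

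The members' median for males under utx-1 RNAi became -0.29 centred on array medians and 0.28 centred on the muscle list, that for utx-1 RNAi with males 0.27 centred on the muscle list, and that of the interaction -0.24 and 0.22. The share of all genes called also depended on the array left out. For males without RNAi it was 12.5% over all arrays and 6.57% without replicate 1 without males. Leaving out each array in turn gave 1 to 2, 3 to 10, 0 to 1, 3 to 10 and 3 to 5 changed members for males without RNAi, males under utx-1 RNAi, utx-1 RNAi without males, utx-1 RNAi with males, then the interaction, in that order, and medians from -0.04 to 0.02, -0.24 to -0.11, -0.06 to 0.01, -0.20 to -0.12 and -0.19 to -0.11.

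Only centring on the muscle list turned signs of a called member, or of a difference that then passed. For males under utx-1 RNAi it gave ric-4 0.42, aex-3 0.16, eat-4 0.38 and egl-19 0.075, and for utx-1 RNAi with males unc-116 0.39, rab-3 0.15, unc-57 0.40, cha-1 0.062, cho-1 0.42, ric-3 0.090, mod-5 0.43 and shk-1 0.081. Centring adds a constant to every difference of a comparison.

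Replicate numbers did not pair the arrays: of 15 same-numbered pairs 0 had deviations correlated over 0.1 (-0.35 to 0.05). With the replicate block, by the title numbers, the counts in the same order were 1, 6, 0, 4 and 3. Of all genes 7.54%, 16.8%, 0.0234%, 10.7% and 6.17% were then called. The calls that ended under the block were those of aex-3 (males under utx-1 RNAi), unc-104 (utx-1 RNAi without males), rab-3, cha-1, ric-3 and unc-9 (utx-1 RNAi with males) and cat-2 (interaction).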
